A study of Mus musculus with 6 samples.

Results

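The genes described here are 10 transcriptional targets of ERK that feed back on the RAS and ERK pathway: Dusp4, Dusp5, Dusp6, Spry1, Spry2, Spry4, Spred1, Spred2, Etv4 and Etv5. They were taken by gene symbol from a table of 21671 named genes, and all 10 were present and passed the filter on low counts. RNA came from subcutaneous tumours that grew from injected transformed hepatoblasts, fetal liver progenitor cells, in mice labelled CD1 nude ho. The 3 untreated libraries carry the genotype label wild type. The 3 doxycycline libraries carry the genotype label ST18 knockdown and come from animals killed 4 h after an oral gavage of doxycycline (200 mg/ml in 300 µl of water). Per the labels' protocols the injected cells held the conditional vector TtRMPVIR shST18, in which doxycycline turns on a hairpin against St18. Drug, gavage and hairpin therefore differ together between the groups and cannot be told apart. The labels give neither the age of the animals, nor the oncogene that transformed the cells, nor whether the cells were 1 clone. Nude mice lack most T cells but keep macrophages, neutrophils and other host cells, so each library is a mixture of tumour and host RNA. Nothing states that the libraries of a group came from separate animals, so each p-value covers no more than the spread between the libraries at hand, which may be technical.

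As background, receptor tyrosine kinases load RAS with GTP, and RAS acts through RAF, MEK and the kinases ERK1 and ERK2 on transcription factors in the nucleus. Among the genes that ERK then switches on are brakes on the pathway itself. The dual-specificity phosphatases remove phosphate from ERK, Dusp4 and Dusp5 in the nucleus and Dusp6 in the cytoplasm. Sprouty and Spred proteins act upstream, at the level of receptors, RAS and RAF, and Spred proteins bring the RAS inhibitor neurofibromin to the membrane. Etv4 and Etv5 are ETS transcription factors of the PEA3 group, which carry the signal onward and are kept silent by the repressor Capicua (CIC) when ERK is inactive. RNA levels of these genes are widely read as a measure of ERK output in tumours.

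Promoter sequences are shown for the 3 members that held CArG boxes (Dusp5) or CIC octamers (Dusp6 and Spry2) there. All 3 also held the ETS core. Promoters of Spry1, Spred1, Spred2 and Etv5 held neither a CArG box nor a CIC octamer. Whether these motifs go with the changes below was not tested. RefSeq (GRCm38.p6) gave promoters for 7 members, Etv5 with a pair of them, 8 in all, and none was matched for Dusp4, Spry4 and Etv4. Each sequence runs 5′ to 3′ over the 250 bases before the transcription start: Dusp5 at chr19:53528895-53529144 on the plus strand, Dusp6 at chr10:99262981-99263230 on the plus strand and Spry2 at chr14:105896820-105897069 on the minus strand. Capitals mark 2 adjoining CArG boxes, the sites of serum response factor, in Dusp5, and an octamer of the kind bound by CIC in Dusp6 and in Spry2.
Dusp5: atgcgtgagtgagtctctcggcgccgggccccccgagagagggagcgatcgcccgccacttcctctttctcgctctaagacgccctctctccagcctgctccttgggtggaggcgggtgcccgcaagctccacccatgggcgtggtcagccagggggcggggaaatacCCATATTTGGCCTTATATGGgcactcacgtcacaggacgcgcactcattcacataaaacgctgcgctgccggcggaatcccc
Dusp6: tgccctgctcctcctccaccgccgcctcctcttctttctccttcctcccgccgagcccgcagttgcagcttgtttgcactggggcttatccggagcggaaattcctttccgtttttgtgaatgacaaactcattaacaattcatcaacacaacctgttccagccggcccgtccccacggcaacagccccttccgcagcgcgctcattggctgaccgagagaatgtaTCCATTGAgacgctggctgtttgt
Spry2: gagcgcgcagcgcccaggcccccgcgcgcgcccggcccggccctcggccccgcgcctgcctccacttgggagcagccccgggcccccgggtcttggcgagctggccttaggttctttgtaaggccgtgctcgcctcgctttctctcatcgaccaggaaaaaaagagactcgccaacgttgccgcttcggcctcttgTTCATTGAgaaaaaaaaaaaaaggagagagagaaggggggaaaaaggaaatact

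The CArG boxes of Dusp5 began 82 and 72 bases before the start, and the ETS core GGAA stood just upstream, 90 bases before it. Over 32851 promoters of the same length and searched on both strands, 1.47% held a CArG box, and of the 8 promoters of members only that of Dusp5 did. The octamer TCAATGGA lay on the reverse strand of Dusp6, 24 bases before the start (0.521% of all promoters), and TCAATGAA on the reverse strand of Spry2, 54 bases before it (0.642%). The other octamers searched, TGAATGAA (1.08%) and TGAATGGA (1.01%), matched none of the 8. Neither did the AP-1 site TGACTCA (4.46%), the CRE TGACGTCA (1.55%) or the long ETS site CCGGAAGT (2.88%). The short CRE core TGACG (17.8%), which is part of the CRE, was found in Dusp5 and Spred2. The ETS core GGAA, which is part of the long ETS site, occurred in 7 of the 8 and in 93.4% of all promoters. None of the capitalised motifs overlapped another. A match describes letters only and shows no binding.

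Totals ran from 12090309 to 16169043 counts per library, and TMM factors from 0.985 to 1.02. St18, the hairpin's target, had untreated counts of 12, 23 and 19 and doxycycline counts of 34, 12 and 61, in replicate order, so a fall of the target was not seen in the libraries labelled ST18 knockdown. Doxycycline replicate 2 lay apart from the other libraries on the second principal component (27.6% of the variance). The hepatoblast label was met in part: Krt8, Krt18, Sox9 and Dlk1 had between 71 and 1433 counts in every library, while the hepatocyte genes Alb and Ttr had 7 and 2 counts over all 6. Skeletal muscle markers summed to 84.1 to 235 CPM in the untreated and 449 to 3072 CPM in the doxycycline libraries, with 10 of 15 higher (1 in limma-voom, 14 in DESeq2) and a median log2 fold change of 3.60. Among 13 markers of fibroblasts and mural cells 3 were higher (1328 to 1380 against 1744 to 2012 CPM), of 12 macrophage markers 3 were higher (430 to 517 against 531 to 771 CPM) and of 10 endothelial markers 2 were higher (282 to 323 against 378 to 445 CPM). Of 7 neutrophil markers tested 1 was lower in edgeR, 4 in DESeq2 and 0 in limma-voom (100 to 162 against 41.8 to 78.0 CPM). None of 10 hepatoblast, hepatocyte and biliary markers tested passed in edgeR, DESeq2 or limma-voom, with 1 higher and 0 lower at an unadjusted p under 0.05 in edgeR, and their sums spanned 142 to 228 and 143 to 234 CPM. No marker on these lists was at 0 in all 6 libraries. The part of these shifts in the results below was not tested, and in bulk RNA fewer cells of a type and less RNA per cell cannot be told apart.

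In the untreated tumours the feedback genes were well expressed, most of them above the median gene. Divided by exonic length (GENCODE M21), Dusp6 stood at 66.6 ± 1.57 CPM per kilobase and Etv4 at 65.9 ± 0.815 (SD, n = 3 each), higher than 97.4% and 97.3% of tested genes. Etv5 followed at 44.2 ± 1.53, then Dusp4 at 38.9 ± 2.64 and Spry4 at 38.8 ± 2.23 CPM per kilobase. Spry2 (31.2 ± 2.30), Spred1 (28.0 ± 0.586) and Spry1 (27.4 ± 1.19) formed the next group on the same scale. Spred2, at 17.5 ± 2.39, and Dusp5, at 14.1 ± 1.48 CPM per kilobase, were the lowest, Dusp5 at the 49.4th percentile of tested genes. Differences within the pairs Dusp6 and Etv4, Dusp4 and Spry4, and Spred1 and Spry1 were smaller than the larger SD of the pair. In the 1 pair of untreated libraries compared for depth, counts of abundant genes differed less, at the median, than the totals. Between the deepest and the shallowest untreated library the totals differed 1.23-fold, while the median ratio per gene was 1.25 at 0.05 to 0.1 counts per base, 1.16 at 0.5 to 1 and 1.11 above 1. Dusp6 (0.974 counts per base) and Etv4 (0.966) lay between 0.5 and 1. Dusp5 (0.205) lay between 0.2 and 0.5, where the median ratio was 1.20. Between the same libraries the counts of Dusp6 differed 1.16-fold and those of Etv4 1.22-fold. The ratio was 1.055 for Dusp4, and over the members it ran from 0.979 (Dusp5) to 1.53 (Spred2). The members' ratios thus did not follow their counts per base, and the cause of the median pattern was not tested.

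After doxycycline 1 of the 10 genes, the nuclear phosphatase gene Dusp5, was lower and none was higher. Across the transcriptome 323 of 14809 tested genes (2.18%) were lower and 421 (2.84%) higher by edgeR's quasi-likelihood test at an adjusted p under 0.05; with offsets for GC content and length these were 449 lower and 299 higher. At an unadjusted p under 0.05, 4 members were lower (Dusp4, Dusp5, Spry4 and Etv5; 10.8% of all genes) and 0 higher (13.1%), and DESeq2 and limma-voom also called 0 higher at an adjusted p under 0.05. The log2 fold change was negative for all 10 members, as for 48.9% of all genes, with a median of -0.17 against 0.01 over all tested genes. The median was -0.33 without doxycycline replicate 2. Of the 10 values, 9 were negative with upper quartile scaling, with the offsets or without doxycycline replicate 1, and 8 without doxycycline replicate 3. The groups did not overlap for Dusp4, Dusp5, Etv4 and Etv5, each lower after doxycycline (14.4% of all genes were separated in this direction and 15.2% in the other). All 10 values come from the same 6 libraries and are not independent of each other.

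**Figure D1:**
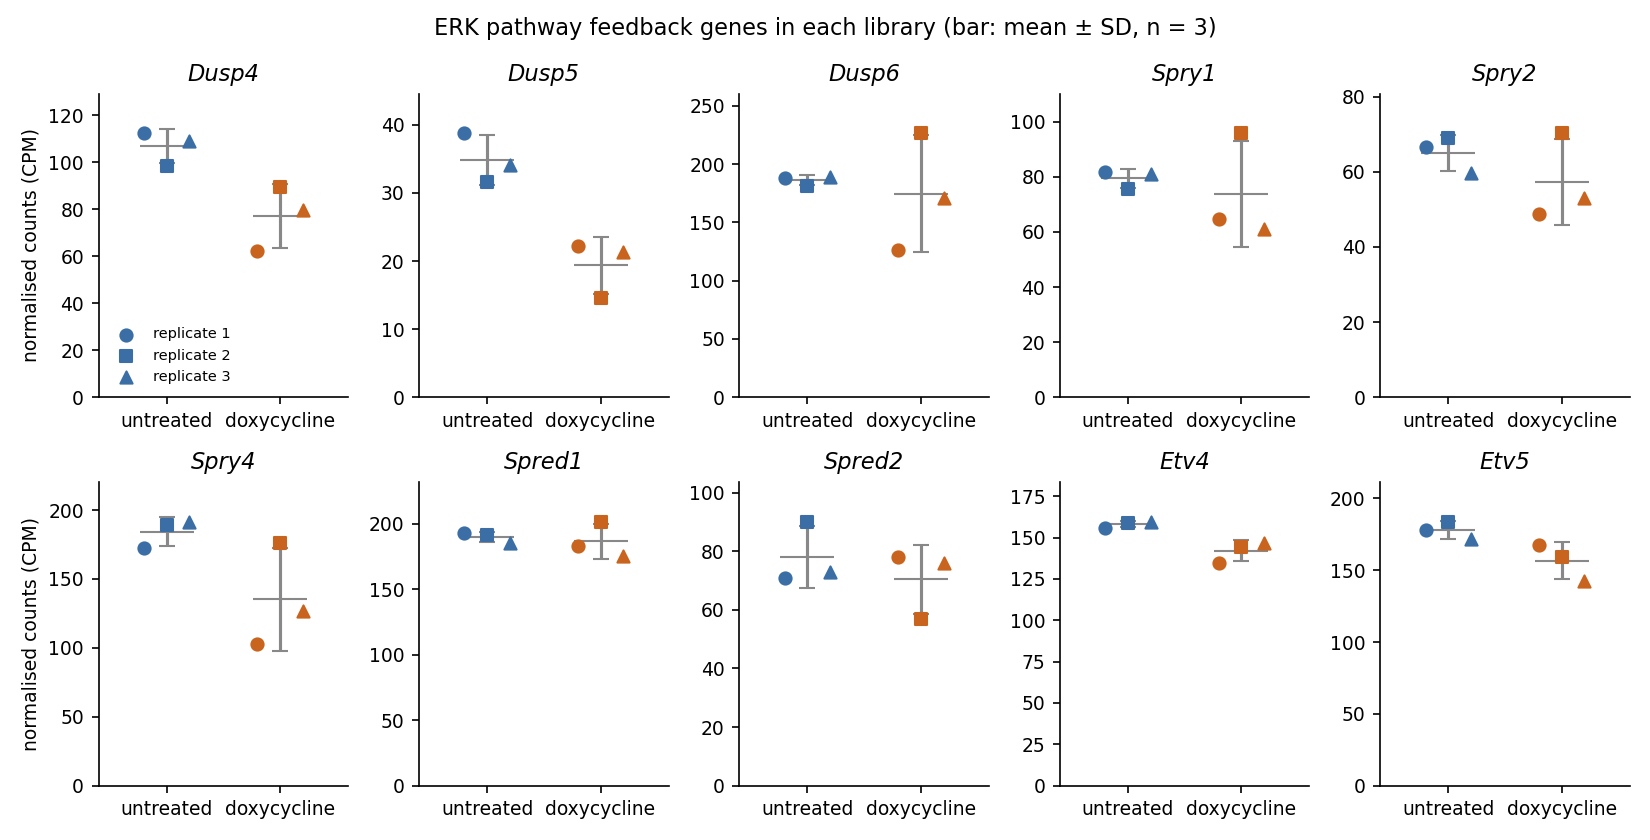
Normalised counts (CPM, axis from 0) of the 10 genes in each untreated (blue) and doxycycline (orange) library, with the replicate number as the marker shape and grey bars for mean ± SD (n = 3). Dusp5 lies lower in all 3 doxycycline libraries (14.6 to 22.2 CPM against 31.6 to 38.8), while Dusp6 spreads from 126 to 227 CPM around a tight untreated group.

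Among the phosphatases Dusp5 changed most. Its level was 38.8, 31.6 and 34.2 CPM in untreated replicates 1, 2 and 3 (513, 502 and 506 counts) and 22.2, 14.6 and 21.3 CPM in doxycycline replicates 1, 2 and 3 (265, 212 and 340 counts). All doxycycline libraries were below all untreated ones, and doxycycline replicate 2 was the lowest. The mean went from 34.8 ± 3.66 to 19.4 ± 4.19 CPM (SD, n = 3 each), a log2 fold change of -0.85 (SE 0.19, 95% interval -1.29 to -0.41, edgeR adjusted p = 0.0453), or 55.6% of the untreated level. The call sat at the threshold. It was lost without any 1 untreated library (edgeR adjusted p = 0.187, 0.106 and 0.188 without replicates 1, 2 and 3). The log2 fold change was then -0.765, -0.932 and -0.864. In these settings edgeR called 12, 25 and 13 genes lower over all genes, against 323 with all 6 libraries. The Dusp5 call was also lost without doxycycline replicate 1 (edgeR adjusted p = 0.0565) or replicate 3 (0.0896). It held without doxycycline replicate 2 (log2 fold change -0.68, edgeR adjusted p = 0.0163). Exons of an antisense gene, AC137853.2, cover 547 bases (22.1%) of the Dusp5 exons in GENCODE M21, and whether the counting used strand is not given in the sources used here, so reads of the pair cannot be told apart.

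Dusp4, the other nuclear phosphatase here, was at 112, 98.5 and 109 CPM in the untreated and 62.3, 89.2 and 79.7 CPM in the doxycycline libraries, in replicate order. The groups did not overlap, and doxycycline replicate 1 was the lowest. The log2 fold change of -0.47 (SE 0.13, 95% interval -0.77 to -0.16) did not pass (edgeR adjusted p = 0.0832). DESeq2 called it (adjusted p = 0.0221), as did edgeR without doxycycline replicate 2 (-0.59, adjusted p = 0.0119). Dusp6, the cytoplasmic ERK phosphatase, was at 189, 181 and 189 CPM in the untreated libraries and at 126, 227 and 171 CPM after doxycycline. The doxycycline libraries lay on both sides of the untreated ones, replicate 1 below and replicate 2 above all 3. The log2 fold change was -0.09 (95% interval -0.50 to 0.31, edgeR adjusted p = 0.806), and it was 0.09 without doxycycline replicate 1 and -0.32 without replicate 2, neither past the threshold.

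The phosphatases thus did not keep 1 order across the doxycycline libraries. The log2 ratio of Dusp5 to Dusp6 within a library, which no scaling of libraries can alter, was -2.28, -2.52 and -2.47 in the untreated and -2.50, -3.96 and -3.01 in the doxycycline replicates. Its mean was lower by 0.73 after doxycycline, but the groups overlapped (exact permutation test over libraries, two-sided, p = 0.2, adjusted over 4 pairs 0.267). For Dusp5 to Dusp4 the mean was lower by 0.38 (exact permutation p = 0.4, adjusted 0.4). The design allows no p below 0.1, and the 4 pairs were chosen after the values were seen.

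**Figure D2:**
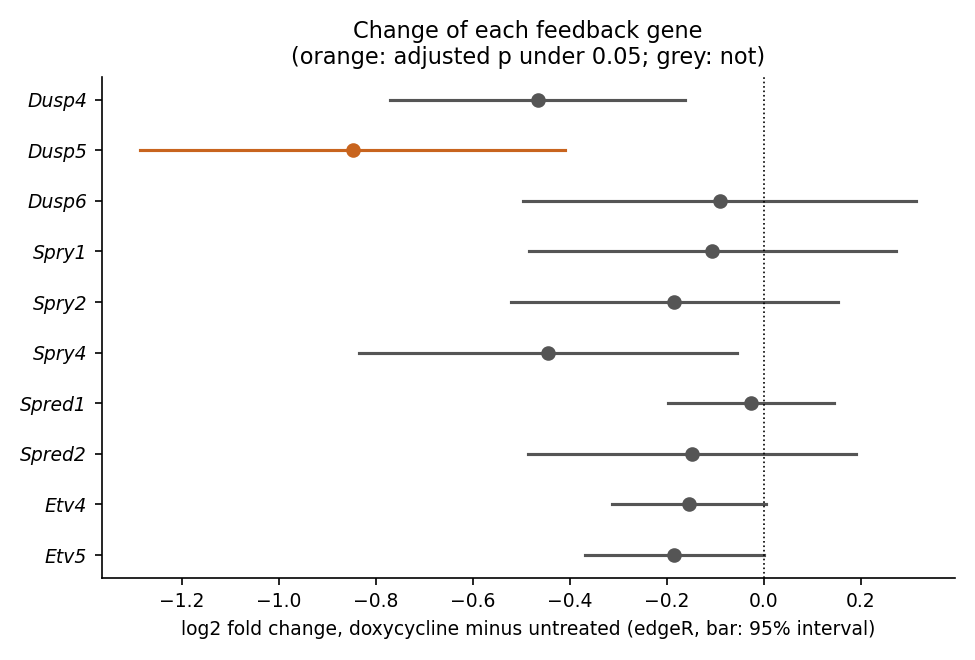
Log2 fold change (doxycycline minus untreated, edgeR, all 6 libraries) of each gene with its 95% interval; orange marks an adjusted p under 0.05. All points lie left of 0, from -0.85 for Dusp5 to -0.03 for Spred1, and Dusp5 is the only orange point.

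Of the Sprouty genes, which encode inhibitors acting between the receptors and RAF, Spry4 had the lowest log2 fold change, which did not pass the threshold. It was at 172, 189 and 192 CPM in the untreated and 103, 176 and 127 CPM in the doxycycline libraries. Doxycycline replicates 1 and 3 were below every untreated library and replicate 2 was among them. In edgeR this gave a log2 fold change of -0.44 with an SE of 0.17 and a 95% interval of -0.83 to -0.05 (adjusted p = 0.162). Without doxycycline replicate 2 it was -0.68 and passed (adjusted p = 0.00318).

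Spry1 was at 81.8, 75.5 and 81.1 CPM untreated and at 64.6, 95.9 and 61.0 CPM after doxycycline. Here too replicates 1 and 3 were below and replicate 2 above every untreated library. The log2 fold change was -0.11 (95% interval -0.48 to 0.27, edgeR adjusted p = 0.752). It was -0.34 and passed without doxycycline replicate 2 (adjusted p = 0.0377), and 0.02 without replicate 3 (adjusted p = 0.973). Exons of Gm42922, on the other strand, cover 710 bases (24.4%) of the Spry1 exons. Spry2 was at 66.6, 69.0 and 59.7 CPM untreated and at 48.6, 70.3 and 52.9 CPM after doxycycline, with the same arrangement of libraries: replicate 2 was the highest of all 6 and the other two were the lowest. Its log2 fold change was -0.18 (95% interval -0.52 to 0.15, edgeR adjusted p = 0.495). It was -0.36 without doxycycline replicate 2 (adjusted p = 0.053), -0.08 without replicate 1 and -0.31 with offsets for GC content and length, none past the threshold.

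The log2 ratio of Spry4 to Spry1 was 1.07, 1.33 and 1.24 in the untreated and 0.67, 0.88 and 1.05 in the doxycycline libraries. This ratio was lower in all doxycycline libraries, doxycycline replicate 2 included (difference of means -0.34). The exact permutation test, two-sided, gave p = 0.1, the smallest the design allows (adjusted over 4 pairs 0.2), and so did the ratio of Spry4 to Spred1 (-0.45, p = 0.1, exact permutation test). Both ratios are among the 4 pairs chosen after the values were seen, a choice that the adjustment does not cover.

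The Spred genes differed little between the groups. Spred1 was at 193, 191 and 185 CPM untreated and 183, 202 and 175 CPM after doxycycline. The groups overlapped, and the log2 fold change of -0.03 had the narrow 95% interval of -0.20 to 0.15 (edgeR adjusted p = 0.876). With offsets for GC content and length it was -0.29 (adjusted p = 0.0859). Spred2 was at 70.7, 90.1 and 72.9 CPM untreated and 78.0, 57.0 and 76.1 CPM after doxycycline. Doxycycline replicate 2 was the lowest of all libraries, and the other two lay inside the untreated range. Its log2 fold change was -0.15 (95% interval -0.49 to 0.19, edgeR adjusted p = 0.593), and -0.02 without doxycycline replicate 2.

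The PEA3 factors Etv4 and Etv5 had slightly lower values in every doxycycline library and did not pass the threshold. Etv4 was at 156, 159 and 160 CPM untreated and 135, 145 and 147 CPM after doxycycline. The groups did not overlap, and the doxycycline level was 89.9% of the untreated one (log2 fold change -0.15, SE 0.07, 95% interval -0.31 to 0.01, edgeR adjusted p = 0.226). With offsets for GC content and length it was -0.01. Etv5 was at 178, 184 and 172 CPM untreated and 168, 160 and 143 CPM after doxycycline. Again no doxycycline library reached the untreated range (log2 fold change -0.18, SE 0.08, 95% interval -0.37 to 0, edgeR adjusted p = 0.209). In both genes doxycycline replicate 2 lay between replicates 1 and 3.

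**Figure D3:**
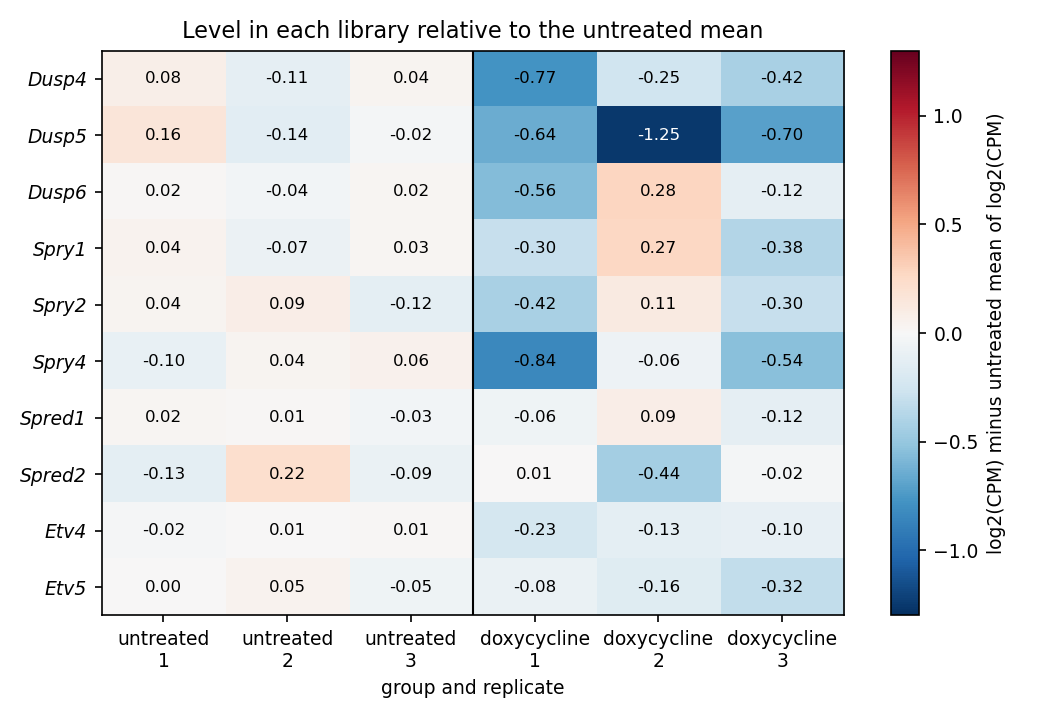
Level of each gene (rows) in each library (columns) as log2(CPM) minus the untreated mean of log2(CPM); blue is lower and red higher. In doxycycline replicate 2 Dusp6 (0.28), Spry1 (0.27) and Spry2 (0.11) are above the untreated mean, while Dusp5 (-1.25) and Spred2 (-0.44) have their lowest values.

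The doxycycline libraries differed among themselves more than the untreated ones in all 10 genes, as in 75.4% of all tested genes. The SD of log2(CPM) over 3 libraries ran from 0.018 (Etv4) to 0.190 (Spred2) in the untreated group, with a median of 0.074. After doxycycline it ran from 0.066 (Etv4) to 0.424 (Dusp6), with a median of 0.272. Over the 14268 genes with a mean of at least 1 CPM the medians were 0.114 and 0.208. Dusp6 varied 1.04-fold between its highest and lowest untreated library and 1.80-fold between its highest and lowest doxycycline library. For Spry4 these values were 1.11-fold and 1.71-fold.

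The spread had a common arrangement in part of the list. Dusp4, Dusp6, Spry2 and Spry4 were lowest in doxycycline replicate 1 and highest in replicate 2 of that group, an order held by 21.3% of all tested genes. Doxycycline replicate 1 was the lowest of its group for 5 members (32.9% of all genes), and replicate 2 the highest for 6 (37%) and the lowest for Dusp5 and Spred2 (40.5% of all genes). Relative to the untreated mean, doxycycline replicate 1 held 0.559 of Spry4, 0.584 of Dusp4, 0.677 of Dusp6 and 0.747 of Spry2. Replicate 3 held 0.687, 0.748, 0.921 and 0.813 of the same genes. Replicate 2 held 0.957, 0.837, 1.22 and 1.08. In the same libraries the skeletal muscle markers summed to 1517, 3072 and 449 CPM in doxycycline replicates 1, 2 and 3, and neutrophil markers to 51.4, 41.8 and 78.0 CPM. Hepatoblast, hepatocyte and biliary markers summed to 221, 143 and 234 CPM. Whether these shifts move the feedback genes was not tested.

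Without doxycycline replicate 2, 4 members were lower (Dusp4, Dusp5, Spry1 and Spry4) and 0 higher, against 5.69% of all genes lower and 8.18% higher. At an unadjusted p under 0.05, 8 members were then lower (13.9% of all genes) and 0 higher (16.7%). Leaving out any other library left 0 members past the threshold in edgeR, with 2 lower and 0 higher at an unadjusted p under 0.05 without each untreated library or doxycycline replicate 3, and 3 lower and 0 higher without doxycycline replicate 1. Over all genes edgeR then called 12, 25 and 13 lower and 11, 27 and 14 higher without untreated replicates 1, 2 and 3. Without doxycycline replicates 1 and 3 it called 236 and 130 lower and 180 and 159 higher. At an unadjusted p under 0.05, 1071 of 15261, 1265 of 15089 and 961 of 15146 genes were lower without untreated replicates 1, 2 and 3. Without doxycycline replicates 1 and 3 these were 1670 of 15092 and 1447 of 14986, and in each setting more genes were higher than lower. DESeq2 on all libraries called Dusp4 and Dusp5 lower (5.28% of all genes) and 0 members higher (5.99%), and limma-voom called Dusp5.

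**Figure D4:**
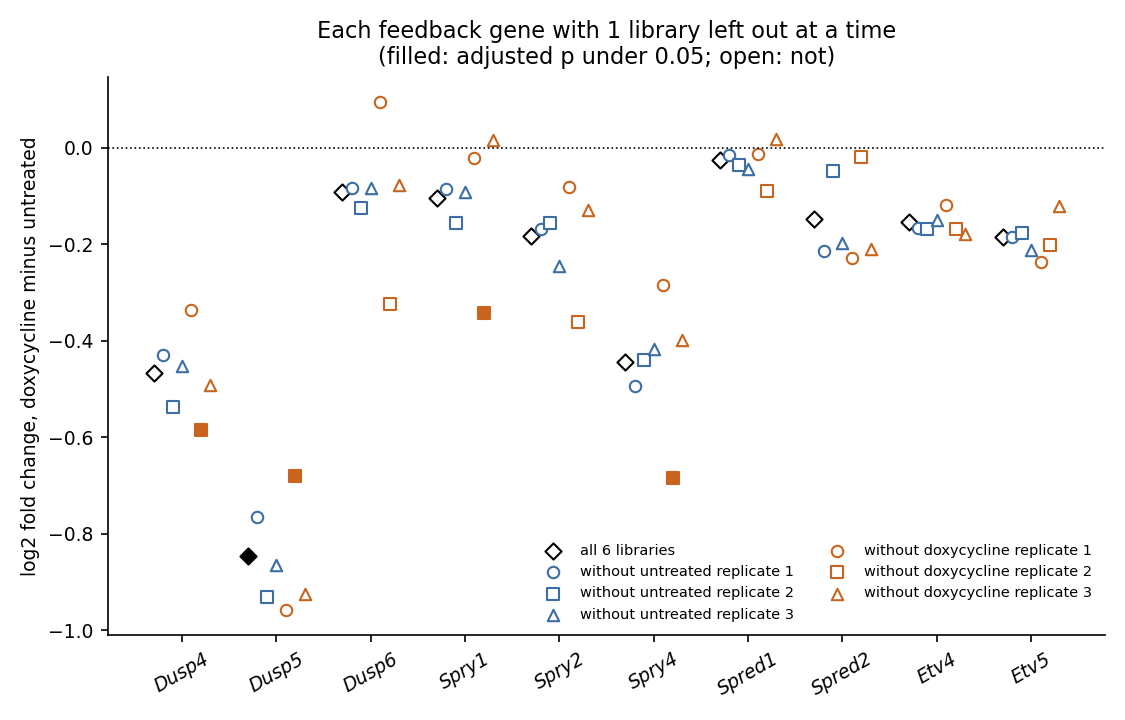
Log2 fold change (doxycycline minus untreated) of each gene with all 6 libraries (diamond) and with 1 library left out (blue: an untreated one; orange: a doxycycline one; shape: replicate number); filled markers have an adjusted p under 0.05. Orange squares, which leave out doxycycline replicate 2, are filled for Dusp4 (-0.59), Dusp5 (-0.68), Spry1 (-0.34) and Spry4 (-0.68), and Dusp6 changes sign without doxycycline replicate 1 (0.09).

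The pathway that feeds these genes was called at about the rate of all genes. Of 38 core genes tested, from receptors and adaptors through RAS, RAF, MEK and ERK to the ribosomal S6 kinases, 2 were lower and 0 higher in edgeR around a median of 0.00 (log2 fold change), beside 2.18% lower and 2.84% higher over all genes. At an unadjusted p under 0.05 edgeR gave 5 higher and 4 lower, beside 13.1% and 10.8% over all genes. DESeq2 called 1 higher and 2 lower (5.99% and 5.28% of all genes), and limma-voom called 0 higher and 2 lower. Without doxycycline replicate 2 edgeR called 8 in either direction, beside 5.69% lower and 8.18% higher over all genes. Without any 1 untreated library it called 0. Map2k2, which encodes the ERK-activating kinase MEK2, was at 88.3, 90.4 and 84.8 CPM untreated and 62.2, 59.8 and 61.5 CPM after doxycycline. The 3 doxycycline libraries were closely alike and below all untreated ones (log2 fold change -0.52, edgeR adjusted p = 0.0185; -0.34 and adjusted p = 0.0756 with offsets for GC content and length). Rps6ka2, which encodes the ERK-activated kinase RSK3, was at 209, 209 and 179 CPM untreated and 138, 116 and 146 CPM after doxycycline (-0.58, edgeR adjusted p = 0.0245), again without overlap. Neither passed without any 1 untreated library (adjusted p from 0.087 to 0.126); without doxycycline replicate 3 Map2k2 missed the threshold (0.0506), and without doxycycline replicate 1 Rps6ka2 did (0.0523).

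A further list held 18 genes induced through ERK, none of them among the 10. Etv1 is also on the list of paralogs below and Errfi1 on that of other negative regulators, so these lists share genes. Of the 18 tested, 12 had negative values (48.9% of all genes did), 1 was lower and none higher. The median was -0.38, and 8 were lower and 3 higher at an unadjusted p under 0.05 in edgeR (10.8% and 13.1% of all genes); whether the list differs from other genes was not tested. DESeq2 called 6 of the 18 lower and 0 higher (5.28% and 5.99% of all genes), while limma-voom called 1 lower and 0 higher. Without doxycycline replicate 2 edgeR called 6 in either direction, beside 5.69% lower and 8.18% higher over all genes. Ier3, an immediate early gene that affects survival and ERK signalling, was at 63.3, 56.0 and 63.0 CPM untreated and 38.0, 28.0 and 37.9 CPM after doxycycline (-0.81, edgeR adjusted p = 0.0233). As for Dusp5, the groups did not overlap and doxycycline replicate 2 was the lowest. Ier3 lost its call without any 1 untreated library (adjusted p 0.126, 0.0734 and 0.133) and without doxycycline replicate 3 (0.051). Plaur, the urokinase receptor gene, was at -0.37 and did not pass (edgeR adjusted p = 0.0793). It passed in 2 of 14 alternatives, DESeq2 (adjusted p = 0.0265) and edgeR without doxycycline replicate 2 (-0.47, adjusted p = 0.0102).

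Among the paralogs of the 10 genes, Dusp9, a cytoplasmic ERK phosphatase like Dusp6, was lower. It was at 77.8, 70.2 and 77.8 CPM untreated and 51.1, 47.0 and 43.3 CPM after doxycycline, with no overlap (log2 fold change -0.68, SE 0.11, edgeR adjusted p = 0.0166). Of 10 paralogs it was the only one past the threshold, the median was -0.47, and 6 had negative values. At an unadjusted p under 0.05 in edgeR, 5 paralogs were lower and 1 higher (10.8% and 13.1% of all genes). The third PEA3 factor, Etv1, was at 0.27 (edgeR adjusted p = 0.104), and at -0.04 with offsets for GC content and length (adjusted p = 0.833). Dusp9 also lost its call without any 1 untreated library (adjusted p 0.106, 0.0665 and 0.114).

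None of 14 genes on a list of other ETS factors, repressors of ERK targets, Srf and Mkl1 passed in edgeR, DESeq2 or limma-voom. The median was 0.01. At an unadjusted p under 0.05 in edgeR, 1 was lower, Srf, and 0 higher (10.8% and 13.1% of all genes). Srf, which encodes the factor that binds CArG boxes such as those of Dusp5, was at 99.8, 92.2 and 117 CPM untreated and 88.0, 79.6 and 83.2 CPM after doxycycline. Its groups did not overlap (-0.30, edgeR adjusted p = 0.136), but with offsets for GC content and length the log2 fold change was -0.001 (adjusted p = 0.998). The ETS repressor gene Erf was at -0.18 (adjusted p = 0.259), and at 0.001 with the same offsets (adjusted p = 0.997). Of 9 other negative regulators of receptor and ERK signalling, Il17rd, which encodes the FGF receptor antagonist Sef, was higher and none lower in edgeR. Over all genes 2.84% were higher and 2.18% lower. At an unadjusted p under 0.05 in edgeR, 1 of the 9 was higher and 2 were lower (13.1% and 10.8% of all genes). DESeq2 called 1 of them higher and 1 lower (5.99% and 5.28% of all genes). Il17rd was at 135, 153 and 117 CPM untreated and 170, 230 and 244 CPM after doxycycline, the opposite direction to Dusp5 (0.67, edgeR adjusted p = 0.0409). Il17rd passed neither in limma-voom (adjusted p = 0.0519) nor with offsets for GC content and length (0.52, adjusted p = 0.15), nor without any 1 untreated library (0.174, 0.0929 and 0.208) or doxycycline replicate 3 (0.115). Lrig1, which promotes degradation of ERBB receptors, was at -0.25 (edgeR adjusted p = 0.0622). It passed in 2 of 14 alternatives, DESeq2 (adjusted p = 0.0148) and edgeR without doxycycline replicate 2 (-0.26, adjusted p = 0.0375).

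**Figure D5:**
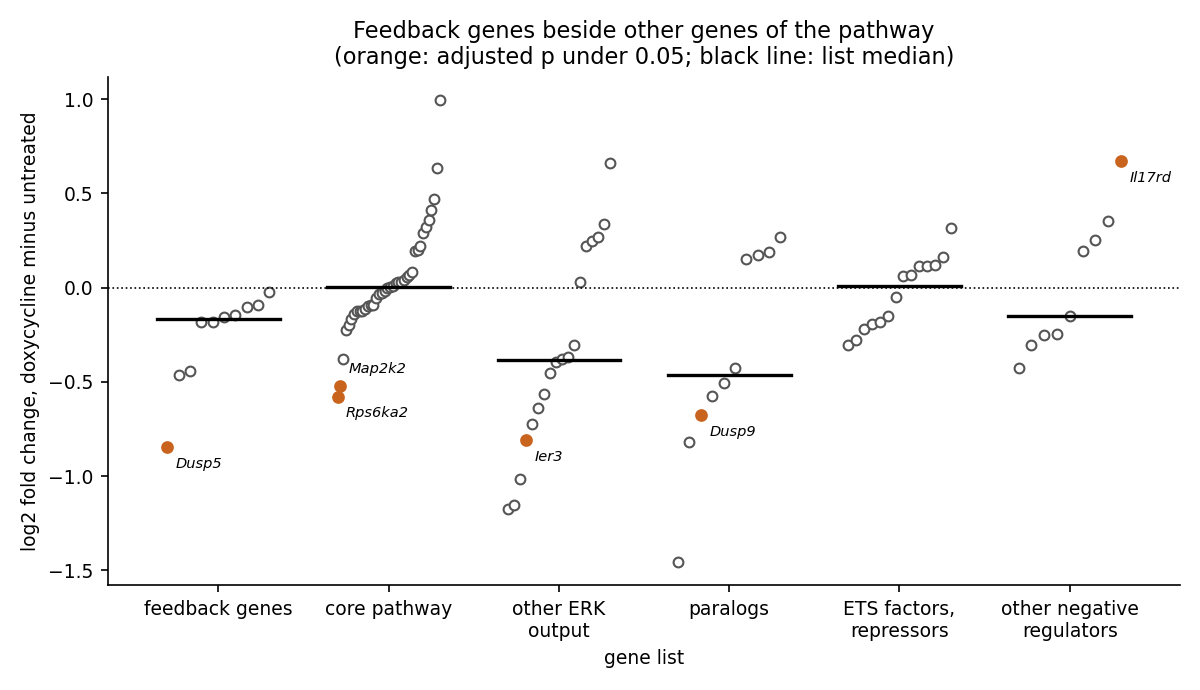
Log2 fold change (doxycycline minus untreated, edgeR, all 6 libraries) of each tested gene in the 10 feedback genes and in 5 lists of other pathway genes; orange genes have an adjusted p under 0.05 and are named, and black lines are list medians. The medians are -0.17 for the feedback genes, 0.00 for the core pathway, -0.38 for other ERK output and -0.47 for paralogs. They are 0.01 for ETS factors and repressors, a list that also holds Srf and Mkl1, and -0.15 for other negative regulators. Etv1 is in both other ERK output and paralogs, and Errfi1 in both other ERK output and other negative regulators.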

How the data were processed

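Gene expression was measured by sequencing of ribosome-depleted RNA in 3 untreated and 3 doxycycline tumour libraries, grouped by their titles. The deposited table holds raw read counts per gene symbol, which the authors made with TopHat2 2.0.8, TopHat and HTSeq on build mm9, per the submitters' processing notes, with no role or order given. How strand and duplicate reads were treated is not stated in these sources. Of its rows, 90 carry no gene name (0.0361% to 0.0402% of the counts) and were left out. Chi-square tests of counts between replicates gave 5.17 to 29.8 per degree of freedom, so none was a repeat of another.

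Counts were tested in R 4.3.3 with edgeR 4.0.16 (filterByExpr, TMM, robust quasi-likelihood test, two-sided, Benjamini-Hochberg over all 14809 tested genes, threshold 0.05). Standard errors are the log2 fold change over the square root of F. CPM are scaled by TMM-adjusted totals. DESeq2 1.42.0, limma-voom (limma 3.58.1), other scalings and filters, offsets for GC content and length, a replicate block and leaving out each library were alternatives. The code was tested on simulated data. Lengths, GC content and overlaps come from GENCODE M21 and promoters from RefSeq, both GRCm38, another build than mm9. The 10 genes were named in full. Of each other pathway list, the genes past the threshold were named, at most 8, and the 2 smallest p where fewer than 2 passed. Members and lists were chosen with earlier results of these data known.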

Additional observations from a re-analysis of the deposited data

How the results depend on the processing

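The count of feedback genes called lower, 1 with all libraries, was 2 in DESeq2, 0 with a replicate block and between 0 and 4 with 1 library left out. Over all genes, 323 lower and 421 higher became 782 and 887 in DESeq2, 179 and 215 with a replicate block, and between 12 and 866 lower and 11 and 1244 higher with 1 library left out. Limma-voom called 261 higher, and offsets for GC content and length gave 299 higher and 449 lower. Core pathway genes called numbered 2, and 1 with a replicate block, 1 with the offsets and 0 to 8 with 1 library left out. Other ERK output genes called numbered 1, and 6 in DESeq2 and 0 to 6 with 1 library left out. Except where stated, the cause was not tested; leaving out a library leaves fewer samples.

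Replicate numbers are shared by the titles only. Same-numbered libraries did not deviate together (correlations -0.01, -0.075 and 0.016 for replicates 1, 2 and 3). Untreated replicate 1 correlated best with doxycycline replicate 3 (0.025), replicate 2 with doxycycline replicate 1 (0.136) and replicate 3 with doxycycline replicate 2 (0.097). With the replicate block Dusp5 was at -0.86 (adjusted p = 0.0553), Map2k2 at -0.52 (adjusted p = 0.0532) and Il17rd at 0.66 (adjusted p = 0.0634). Over the 14 alternatives Dusp5 stayed between -0.96 and -0.68 and passed in 8, and Dusp4 between -0.59 and -0.34 and passed in 2. Groups of 3 limit the precision of every value.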
